A study of Rattus norvegicus with 4 samples.

Results

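The cerebellum was compared with the prefrontal cortex of male rats on all 4 arrays of the series, 2 hybridised with cerebellar RNA and 2 with prefrontal cortical RNA. In each tissue 1 array carried RNA of control rats and 1 array RNA of rats called depressive. Of 15443 named genes, 12451 were well above background (a flag set by the scanner software) on both arrays of at least 1 tissue and were tested, and 11517 of these, 92.5%, differed between the tissues in the same direction in both states. The other 934 had opposite directions. The shared direction chose these 11517 genes and is therefore not itself a result.

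The cerebellum is built from a small set of cell types that the cortex lacks. Granule cells, the most numerous neurons of the brain, send parallel fibres to Purkinje cells, the inhibitory output neurons of the cerebellar cortex, while Golgi, basket and stellate cells provide local inhibition and Bergmann glia ensheath the Purkinje cell synapses. The prefrontal cortex is made of glutamatergic pyramidal neurons of several layers and of peptide-containing GABAergic interneurons, and the transcription factors that pattern the forebrain and the hindbrain stay expressed in many of these neurons in the adult. Because whole slices were used, fewer cells of a type and less RNA per cell cannot be told apart in any result given here.

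Every rat had been through the forced swimming test, in which time spent immobile is read as depressive-like behaviour. Out of 106 normal rats, those with depressive-like scores formed the depressive group and those with average scores the control group, so the controls had also swum, and the labels name no drug or genetic change. The labels' protocols state that 50 rats were killed after 1 week, perfused with saline, and sliced at 1 mm, and equal RNA of 4 rats was pooled for each array. Strain and age are not given in the sources used here, and the labels do not say whether the cerebellar and cortical pools of a state came from the same 4 rats. With 1 pool per tissue and state, the p-values measure only the spread between these pools.

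The following promoters come from RefSeq (assembly GRCr8) and show, for a Purkinje cell gene, a granule cell gene and a forebrain factor, the 250 bases before the start site in which a motif was looked for on both strands. Capitals mark the match. The motifs were AGGTCA, a core site of nuclear receptors such as RORA, CAGATG, an E-box of the kind bound by NeuroD factors, and GGTGTGA, a T-box element.
Pcp2, chr12:6481308-6481557, minus strand: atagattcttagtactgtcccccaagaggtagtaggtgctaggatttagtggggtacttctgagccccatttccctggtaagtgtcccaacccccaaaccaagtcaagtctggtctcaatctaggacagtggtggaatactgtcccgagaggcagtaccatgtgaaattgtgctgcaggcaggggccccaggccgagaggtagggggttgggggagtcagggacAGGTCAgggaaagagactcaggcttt
Chn2, chr4:84478739-84478988, plus strand: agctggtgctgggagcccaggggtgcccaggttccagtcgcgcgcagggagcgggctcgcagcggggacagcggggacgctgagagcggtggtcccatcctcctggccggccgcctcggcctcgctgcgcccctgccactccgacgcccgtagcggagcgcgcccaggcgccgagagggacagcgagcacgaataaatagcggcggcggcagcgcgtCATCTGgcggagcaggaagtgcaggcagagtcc
Bcl11a, chr14:102231430-102231679, plus strand: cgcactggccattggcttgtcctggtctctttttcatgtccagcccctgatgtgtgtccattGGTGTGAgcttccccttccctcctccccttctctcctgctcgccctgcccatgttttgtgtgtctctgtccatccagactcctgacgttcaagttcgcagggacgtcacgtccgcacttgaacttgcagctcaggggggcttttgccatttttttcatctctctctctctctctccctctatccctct
The match in Pcp2 began at position -26 from the start site, that in Chn2 lay on the other strand and was read from position -33, and that in Bcl11a began at -188. AGGTCA was found in 1 of the 10 Purkinje cell genes with a promoter in the table, against 13.7% of all 27457 promoters. CAGATG was found in 1 of 10 granule cell genes, against 13.7%, and GGTGTGA in 1 of 12 forebrain factors, against 3.19%. With 1 match each these counts are a description only.

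Before any result, the identity of the arrays needs stating. Of the scanner files, those that the repository links to control cortex and to depressive cerebellum held each other's data: their values matched the other sample's column of the deposited value table at r of 0.99996 and 0.99999, and their own column at 0.933. The value table, with which the file names share their reading, was followed. On both depressive samples a free-text label also names the other tissue. With the files as linked each tissue would hold 1 array of each kind, and the number of called genes fell from 8678 to 0 (856 at an unadjusted p under 0.05, limma). Between 22201 and 23759 of 30367 probes were well above background per array, and no named gene was saturated. Across 11623 genes measured on all 4 arrays, arrays of the same tissue correlated at 0.998 in both tissues, and arrays of different tissues at 0.923 to 0.925. These correlations are a description across genes that share probes and 1 slide.

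The 6 genes chosen to mark the tissues lay on the side their tissue label gives. Pcp2, a regulator of G protein signalling in Purkinje cells, gave processed signals of 156486 and 152459 on the cerebellar arrays (control, then depressive, as throughout) and of 619 and 277 on the cortical ones. Gabra6, the granule cell subunit of the GABA-A receptor, gave 56442 and 60299 in cerebellum and 104 and 44.4 in cortex. Both were far higher on each cerebellar array than on either cortical one, and on both genes the depressive cortex array was the lowest of all. Cbln1, a secreted synaptic organiser of granule cells, gave 106529 and 114040 against 496 and 303. Neurod1, a transcription factor of granule cells, gave 63692 and 66653 against 871 and 846. For Tbr1, a transcription factor of deep-layer pyramidal neurons, the cortical arrays gave 93.7 and 105 and the cerebellar arrays 4.22 and 7.30, which was not well above background. Camk2a, the calcium-dependent kinase of excitatory synapses, gave 2548 and 2613 in cortex against 79.3 and 82.4 in cerebellum. The tissues did not overlap for any of the 6. Non-overlap is a description here and below, since 69.7% of tested genes differed at an adjusted p under 0.05 (limma). Its share over all genes was not counted.

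Differences are given from here on as cerebellum minus prefrontal cortex on the log2 scale, each array first set to its own 75th percentile, with the SE of a limma fit of tissue and state over all 12451 genes (n = 2 arrays per tissue, 1 per state) and p adjusted by Benjamini-Hochberg. On that scale Pcp2 was higher by 8.15 ± 0.32 (adjusted p = 0.00179), Gabra6 by 9.36 ± 0.38 (adjusted p = 0.00186), Cbln1 by 7.76 ± 0.23 (adjusted p = 0.00128) and Neurod1 by 5.86 ± 0.05 (adjusted p = 0.000866). Camk2a was lower, at -5.39 ± 0.05 (adjusted p = 0.000866). Where neither array of a tissue was well above background for a gene, the fold is a bound: the mean of the brighter tissue over a floor, which on each dim array is the higher of the gene's own signal and the lowest signal of any probe well above background (8.36 to 15.2). Such a gene entered the fit only through the tissue in which it was bright and had to differ there, so its bound is a description. The words at least, here and below, refer to the processed signal with that floor and not to every way of processing. With normexp background correction the difference was smaller for all 25 named genes given as bounds. Tbr1 was at least 11.5-fold lower in cerebellum, and with normexp its log2 difference was -1.57.

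**Figure D1:**
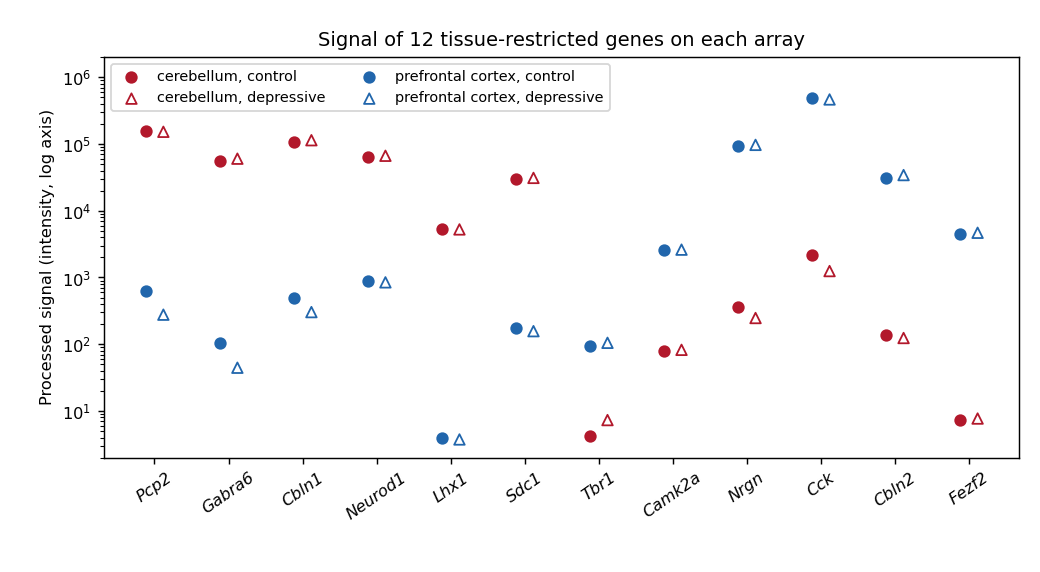
Processed signal of 12 genes on each of the 4 arrays, on a log axis, with circles for control and triangles for depressive pools, red for cerebellum and blue for prefrontal cortex. For each gene, among them Pcp2 (156486 and 152459 against 619 and 277) and Camk2a (79.3 and 82.4 against 2548 and 2613), both arrays of 1 tissue lie above both arrays of the other.

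In number the tissue difference took in most of the genes measured. At an adjusted p under 0.05 the limma fit called 4023 genes higher in cerebellum (32.3% of those tested) and 4655 lower (37.4%), together 69.7%. That 0 of the called genes had opposite directions in the 2 states is no result. The fit takes its residual from the change between states, so such a gene could hardly be called. Which direction held more genes depended on the scaling: median scaling gave 4618 higher and 4141 lower, quantile normalisation 4922 and 4022, and normexp 4131 and 5473. The percentages of the main scaling are the ones set beside the lists. A call alone is common: the median size among called genes was 0.683, and 3011 of them, 34.7%, differed by less than 0.5. A difference of at least 2-fold in both states was rarer. It was seen for 1003 genes higher in cerebellum (8.0% of 12544 with a value or bound in both states) and 1609 lower (12.8%), and at 4-fold for 362 (2.89%) and 631 (5.03%). Genes with the larger differences were more often cortical: of the 328 genes measured on all arrays that differed 8-fold or more on average, 221 were lower in cerebellum, and at 32-fold 30 were higher and 47 lower. A further 150 genes were well above background on both cerebellar arrays and on neither cortical one, and 237 the reverse. The median over all tested genes was -0.04, and other scalings put it between -0.08 (normexp) and 0.07 (quantile), so that small differences are relative to that shift.

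The leading genes on the cerebellar side came from several cell classes. Beside Gabra6, Pcp2 and Cbln1, the largest measured differences were those of Uncx, a homeobox factor, at 7.47, Sdc1, a cell surface proteoglycan, at 7.13, Mab21l1, at 6.50, Comp, an extracellular matrix protein, at 6.37, and Atp2a3, a calcium pump of the endoplasmic reticulum, at 6.20. Sdc1 gave 30354 and 31061 in cerebellum against 178 and 157 in cortex, with both arrays of a tissue close to each other. Spp1 (osteopontin, 6.23) and Tff3 (a secreted trefoil peptide, 6.23) were of the same size, but Tff3 varied more between pools, at 2830 and 1847 against 20.6 and 26.3. Sostdc1, at 7.84, and Folr1, at 6.79, belong to the choroid plexus and are taken up with that list. Among genes not detected above background in cortex, the largest bounds were those of Fat2, a protocadherin of granule cells, at least 783-fold, Lhx1 at least 454-fold, Crtam at least 337-fold and Dao, the D-amino acid oxidase, at least 160-fold higher in cerebellum. These bounds hold for the processed signal as deposited. With normexp and its added offset of 50, the fitted log2 differences were 6.59 for Fat2, 6.20 for Lhx1, 5.51 for Crtam and 4.34 for Dao, several-fold smaller than the bounds.

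All 14 tested genes of the Purkinje cell list were called higher in cerebellum, and 13 of them at least 2-fold in both states, against 32.3% and 8.0% of all genes. The median of the list was 3.82 with its 2 undetected members set at their bounds, against -0.04 over all genes tested. The list and those after it were drawn up for these cell types with earlier results of the same arrays known, so the counts are descriptions. The counts also include members at bounds, which entered only through the tissue in which they were bright. Car8, which binds the inositol trisphosphate receptor, gave 125021 and 131280 against 1877 and 1567 (5.83 ± 0.10, adjusted p = 0.000918). Slc1a6, the glutamate transporter of Purkinje spines, gave 23149 and 25009 against 425 and 409 (5.46 ± 0.06, adjusted p = 0.000866). The tissues did not overlap for either gene. Lhx1, a LIM homeobox factor, gave 5387 and 5251 against 3.91 and 3.74, the latter not well above background. Ppp1r17, a phosphatase inhibitor, gave 17980 and 17646 against 43.4 and 14.9, and only 1 of the 2 cortical arrays, the control one, was well above background. Other members differed less, and the cortical arrays also carried them: the calcium buffer Calb1 by 2.58, the G protein regulator Rgs8 by 2.11, the inositol trisphosphate receptor Itpr1 by 1.14 and the G protein subunit Gng13 by 0.55, the only member under 2-fold. Skor2, Rora and Dner had no named probe.

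All 16 tested granule cell genes were called higher, and at least 2-fold higher in both states, against 32.3% and 8.0% of all genes. The list median was 4.50. Fat2 gave 9556 and 9317 in cerebellum, and 9.52 and 5.69, not well above background, in cortex. Calb2, the calcium buffer calretinin, gave 118693 and 130036 against 2045 and 1561 (5.73 ± 0.15, adjusted p = 0.00113). In both the 2 cerebellar arrays were close together and the cortical ones far lower. Transcription factors of the granule lineage followed the same order of tissues, with Zic1 at 5.57, Barhl1 at 4.59 (above background on 1 of 2 cortical arrays), Pax6 at 3.67, Etv1 at 2.47 and Zic2 at 2.44. The receptor genes for which granule cells are known ranged from the metabotropic receptor Grm4 at 3.78 to the extrasynaptic GABA-A subunit Gabrd at 1.93 and the NMDA subunit Grin2c at 1.58, the lowest of the list. Cbln3, the partner of Cbln1, gave 2708 and 2720 against 72.4 and 68.3 and differed by 4.88 ± 0.05. Reln, the secreted glycoprotein that granule cells in the cerebellum and some interneurons in the cortex make, was 2.78 higher.

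Markers of the smaller cerebellar populations were mixed. Of 10 tested genes of unipolar brush, Golgi and molecular layer interneurons, 7 were called higher and 3 lower, beside 32.3% and 37.4% of all genes. Their median was 2.11. Tfap2b, a factor of the inhibitory lineage, gave 14891 and 14511 against 263 and 378 (5.15 ± 0.19, adjusted p = 0.00159), and Slc6a5, the glycine transporter of Golgi cells, gave 1661 and 1863 against 95.4 and 69.1 (4.05 ± 0.18, adjusted p = 0.00206). The tissues did not overlap for either gene. Lmx1a, a factor of unipolar brush cells that choroid plexus also expresses, was at least 59.1-fold higher, with 521 on the control and 919 on the depressive cerebellum array. The members that went the other way were Sorcs3 at -0.79, Nxph1 at -0.70 and Ptprk at -1.48, which cortical neurons express as well. Of 8 Bergmann glia genes 6 were called higher, 1 lower and 1 not called, beside the same shares of all genes. Their median was 2.0. Gdf10, a secreted factor of the TGF-beta family, gave 12541 and 14602 against 289 and 255 and differed by 5.25 ± 0.11. Timp4, a metalloproteinase inhibitor, at 3.85, and the endothelin receptor Ednrb, at 2.70, came next. Hopx was lower at -0.60, and Fabp7, at 6315 and 7339 against 4824 and 5286, was not called (0.04 ± 0.05, adjusted p = 0.516).

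Transcription factors that pattern the brain along its axis mostly lay on the side of their region. Of 16 tested midbrain and hindbrain factors 15 were called higher in cerebellum, against 32.3% of all genes. At least 2-fold higher in both states were 14, against 8.0%. The list median was 4.81, with 5 of the 16 at bounds. En2, an engrailed factor of the midbrain and hindbrain boundary, gave 1239 and 1246 against 4.01 and 3.82 and was at least 106-fold higher. Irx2, of the Iroquois family, was at least 53.1-fold and Barhl2 at least 32.8-fold higher, and Meis1 was higher by 3.79. Lhx9 was the tested member that was not called, and the 9.47 and 73.8 on its cerebellar arrays straddled the cortical 12 and 30.1. Gbx2 was not well above background on any array. The list shares Zic1, Zic2, Barhl1, Pax6, Lhx1, Lhx5, Pax2 and Tfap2b with the cell lists given already. Of 12 Hox genes, which mark levels behind the cerebellum, only 3 were bright enough to test. Hoxd4 was called lower in cerebellum (-1.42), while Hoxb7 and Hoxc5 were not called.

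On the forebrain side 17 of 20 tested factors were called lower in cerebellum and 3 higher, against 37.4% and 32.3% of all genes. At least 2-fold lower in both states were 14, against 12.8%. The median was -2.78, with 6 of the 20 at bounds. Fezf2, which specifies the deep-layer neurons that project out of the cortex, gave 4523 and 4678 in cortex and 7.38 and 7.70, not well above background, in cerebellum, at least a 535-fold difference (a log2 difference of -6.26 with normexp). The cortical arrays were close to each other while neither cerebellar array detected the gene. Emx2 was at least 333-fold and Dlx1, a factor of interneurons, at least 150-fold lower. Under the settings tried, the log2 difference was as small as -6.175 for Emx2 and -4.99 for Dlx1. Lhx2 gave 5831 and 6341 in cortex against 20.0 and 7.54, and was well above background on 1 of the 2 cerebellar arrays, the control one. The 3 factors called higher in cerebellum were Neurod2 at 0.45, Bhlhe22 at 0.48 and the orphan receptor Nr4a2 at 1.07, so that the name of the list did not hold for them, and Otx1 was lower by a small amount, at -0.36.

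Pyramidal neuron genes were lower in cerebellum for 16 of 18 tested members, 11 of them at least 2-fold in both states. The shares of all genes were 37.4% and 12.8%. The list median was -1.42, with 3 of the 18 at bounds. Nrgn, the calmodulin-binding protein neurogranin, gave 94623 and 97074 in cortex against 364 and 247 in cerebellum and had the largest difference on the cortical side among the brighter called genes measured on all 4 arrays, -8.71 ± 0.20 (adjusted p = 0.00102). Crym, a thyroid hormone binding protein, gave 109153 and 105663 against 7656 and 5191 (-4.48 ± 0.17, adjusted p = 0.00175). The cortical arrays did not overlap the cerebellar ones for these genes. Rasgrf2, of upper layers, was at least 45.6-fold lower, and Lmo4, a LIM-only protein, lower at -3.37. Slc17a7, the vesicular glutamate transporter that cortical and granule neurons share, differed by -0.97 only. Pcp4, a calmodulin regulator of deep-layer and Purkinje cells, was the other member beside Nr4a2 to be higher in cerebellum, at 1.55.

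Genes of the postsynaptic density and its signalling were almost uniformly cortical, with 19 of 20 called lower in cerebellum, against 37.4% of all genes. Lower by at least 2-fold in both states were 16, against 12.8%. The list median was -2.30, with 2 of the 20 at bounds. Ddn, the dendritic protein dendrin, gave 7372 and 7030 in cortex and 12.2 and 7.01, not well above background, in cerebellum, at least 694-fold. Camkv, a kinase-like protein of spines, gave 50064 and 50656 against 363 and 327 (-7.58 ± 0.08, adjusted p = 0.000866). Dlgap2, a scaffold, followed at -5.45, and the activity-regulated Arc at -3.01. The calcineurin subunits Ppp3ca (-0.77) and Ppp3r1 (-0.98) and the scaffold Shank3 (-0.35) differed less. Ppp1r1b, the phosphatase regulator DARPP-32, was called higher in cerebellum, at 0.54. Among the largest differences outside the lists were Icam5, the telencephalic adhesion molecule, at -7.84, Fibcd1 at -7.10, Cpne4 at -6.89, Ctxn1 at -6.69, Pcdh8 at -6.64, F12, the coagulation factor, at -6.61 and Enc1 at -6.51. Trim54 was at least 176-fold lower in cerebellum. Icam5 gave 35547 and 34982 in cortex and 202 on each cerebellar array.

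Of 17 tested interneuron genes, 11 were called lower in cerebellum, 4 higher and 2 not called, beside 37.4% and 32.3% of all genes called lower and higher. All 11 were at least 2-fold lower in both states, against 12.8% of all genes. The list median was -3.45, with 1 member at a bound. The neuropeptides made up most of the lower group. Cck, cholecystokinin, gave 491055 and 465327 in cortex against 2156 and 1248 in cerebellum (-8.58 ± 0.23, adjusted p = 0.00116). Cort, cortistatin, gave 14199 and 13227 against 83.9 and 59.1 (-8.0 ± 0.14, adjusted p = 0.000943). Cortical and cerebellar arrays were again fully separate. Vip gave 12906 and 12499 against 43.9 and 29.5, with 1 of 2 cerebellar arrays well above background, and Crh was at least 143-fold lower. For Crh the settings tried gave log2 differences as small as -4.60. Crhbp differed by -6.36, Tac3 by -4.64, Sst by -3.54 and Npy by -2.68. Among the members called higher in cerebellum, Pvalb, the calcium buffer parvalbumin, gave 257933 and 254694 in cerebellum against 36105 and 37636 in cortex (2.41), Nos1, nitric oxide synthase, was higher by 1.97 and Gad1, the main GABA-synthesising enzyme, by 1.00. Penk, proenkephalin, was higher by 0.43. Gad2 was not called, at 2183 and 2257 against 1726 and 1687 (-0.01 ± 0.05, adjusted p = 0.844).

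**Figure D2:**
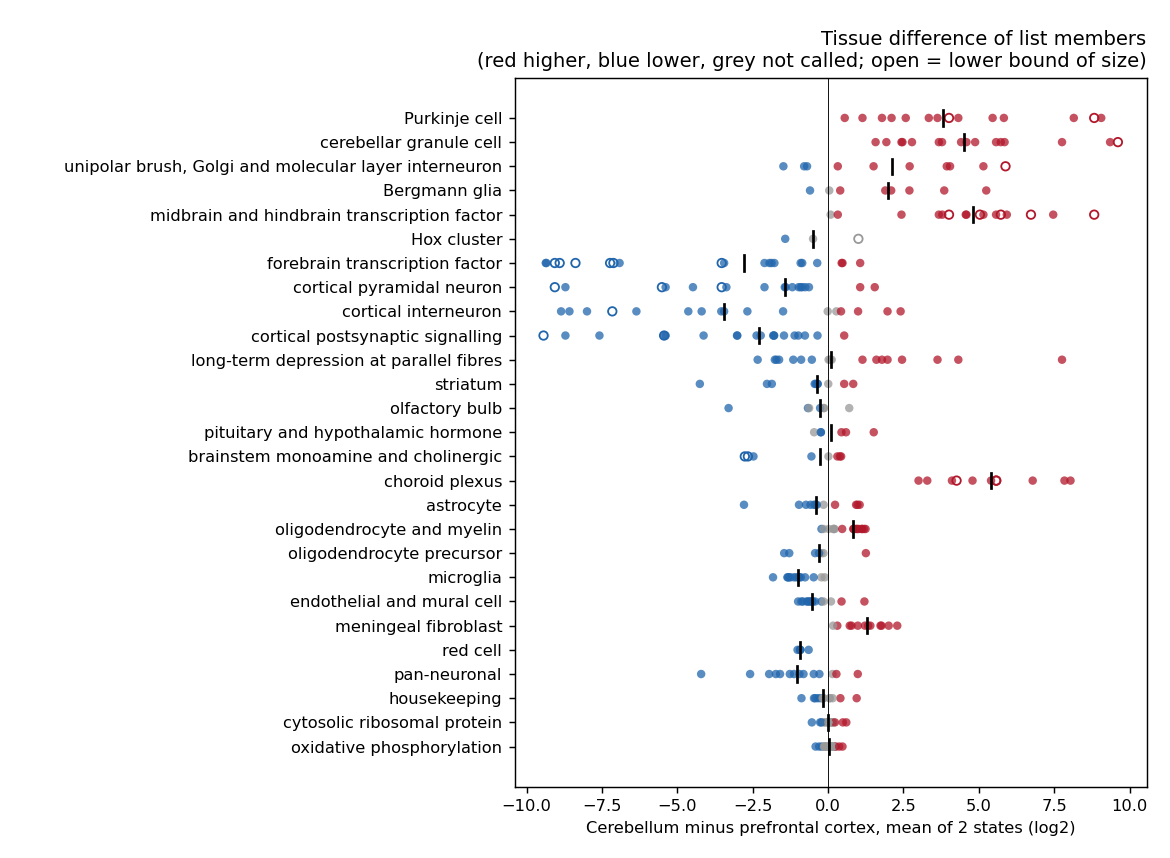
Each point is a tested gene of a list, placed by its log2 difference of cerebellum minus prefrontal cortex averaged over both states, filled where measured and open at the lower bound of its size where 1 tissue was not well above background; the bar is the list median. Purkinje and granule cell genes and hindbrain factors lie to the right (medians 3.82, 4.50 and 4.81), and forebrain factors, interneuron and postsynaptic genes mostly to the left (-2.78, -3.45 and -2.30).

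Gene families held members on both sides. In 24 of 28 families of receptors, channels and signalling proteins at least 1 member was called higher and at least 1 lower. With 69.7% of all genes called, a family of several genes can be expected to hold both directions, so nothing particular to families is read from that count. Over all families 48 of 166 tested members were called higher (28.9%) and 100 lower (60.2%), beside 32.3% and 37.4% of all genes. The cerebellins, secreted organisers of synapses, had the widest span: Cbln1 and Cbln3 were higher in cerebellum (7.76 and 4.88) and Cbln2 and Cbln4 lower (-8.36 and -4.99). Cbln2 gave 30916 and 34253 in cortex against 137 and 124 in cerebellum, the reverse of Cbln1 on the same arrays.

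Among ligand-gated receptors, the GABA-A alpha subunits ran from Gabra6 at 9.36 to Gabra4, Gabra2 and Gabra3 between -2.57 and -3.05, and Gabra5, the extrasynaptic subunit of hippocampus and cortex, was at least 44.5-fold lower in cerebellum. Of the NMDA receptor subunits Grin2c alone was higher (1.58), while Grin2b was at least 43.3-fold lower and Grin1, Grin2a, Grin2d and Grin3a were lower by smaller amounts (-0.51 to -2.06). Gria4 was the AMPA receptor subunit higher in cerebellum (1.90), and Gria1, Gria2 and Gria3 were lower (-1.77 to -2.34). The metabotropic receptor Grm4 was higher by 3.78, and Grm5 was lower at -4.13. Glutamate uptake followed the same pattern, with the Purkinje transporter Slc1a6 at 5.46 and the astrocyte transporter Slc1a3 at 0.40 on one side, and Slc1a2, the main astrocyte transporter of the forebrain, at -2.79 on the other.

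The scaffolds, kinases and channels divided in the same way. Homer3 was higher by 3.63 and Homer1 and Homer2 were lower (-2.23 and -1.30). Of the CaM kinases Camk2d (1.69), Camkk2 (1.13) and Camk4 (0.72) were higher in cerebellum. Camk2a (-5.39), Camkk1 (-2.68), Camk1d (-1.01), Camk2g (-0.99) and Camk1 (-0.44) were lower. Camk1g (-0.10) and Camk2b (0.10), whose 2 probes differed in direction, were not called. Voltage-gated potassium channels of the fast-spiking Kv3 type were divided, with Kcnc1 higher by 2.38 and Kcnc2 lower at -1.64. Kcna4 (-4.10), the T-type calcium channel Cacna1h (-4.75) and the cation channel Trpc4 (-5.28) were cortical, and their relatives Kcna1 (0.84), Cacna1g (1.34) and Trpc7 (0.86) cerebellar. In the RGS proteins, which shorten G protein signals, 11 of 14 were lower, against 37.4% of all genes, Rgs14 the most (-6.13). Rgs8 and Rgs9 were higher (2.11 and 0.84). Activity-regulated factors of the EGR and NR4A families were lower in cerebellum for 6 of 7 members, against 37.4% of all genes. Egr2 was at least 125-fold lower, and Nr4a2 was higher. Of the EF-hand proteins Calb2, Hpcal1, Calb1 and Pvalb were higher (2.41 to 5.73) and Ncald, Hpca and S100b lower (-0.47 to -3.46). Syt2, the fast calcium sensor of release, was higher by 2.52 and Syt17 lower at -5.91. Phosphodiesterase Pde1c was at least 12.9-fold higher, and Pde1a was lower at -5.62. The log2 difference of Pde1c was as small as 1.27 under the settings tried. Complexins, vesicular glutamate transporters, inositol trisphosphate receptors and the single ryanodine receptor with a named probe did not have called members in both directions.

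**Figure D3:**
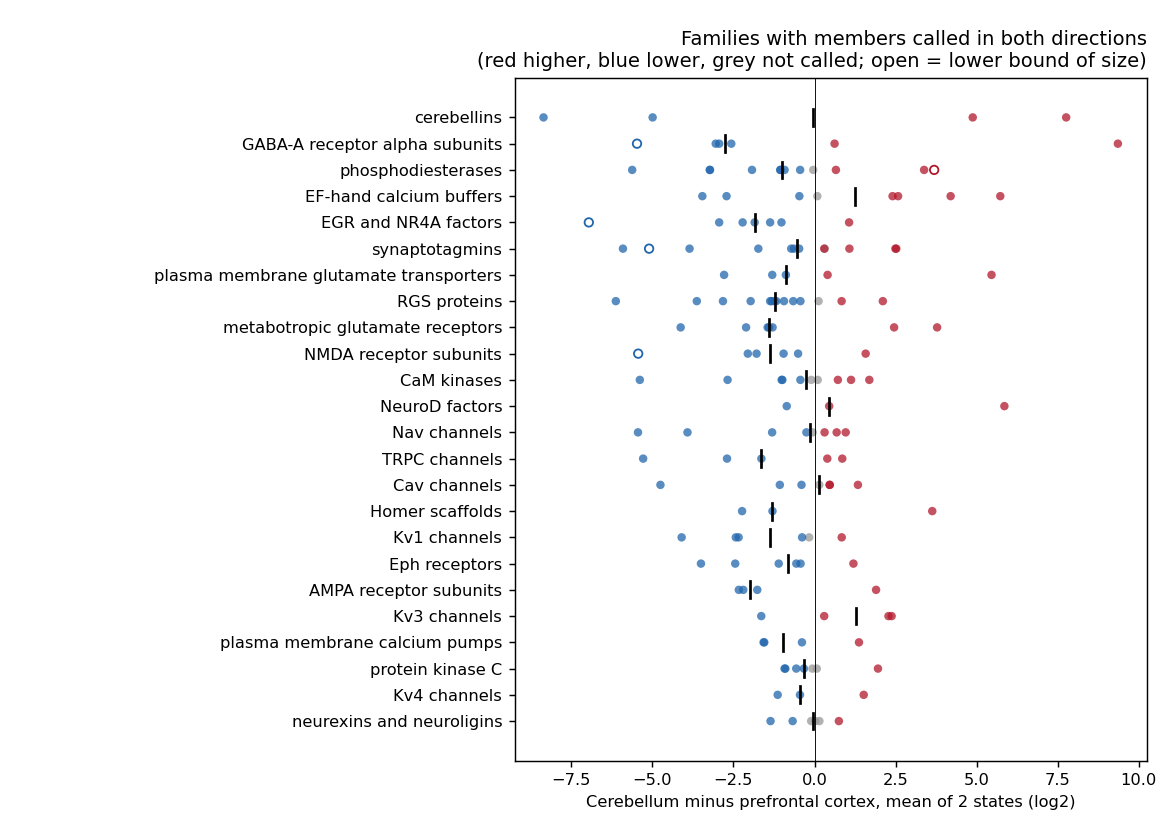
Log2 difference of cerebellum minus prefrontal cortex, averaged over both states, for the tested members of the 24 families with members called in both directions, ordered by span; open points are lower bounds of size and bars are medians. The cerebellins reach from -8.36 (Cbln2) to 7.76 (Cbln1), and the GABA-A alpha subunits reach 9.36 (Gabra6).

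The pathway of long-term depression at the parallel fibre synapse, in which AMPA receptors are removed from the Purkinje cell had members on both sides. Of its 18 tested genes 8 were called higher in cerebellum, 7 lower and 3 not called, beside 32.3% and 37.4% of all genes. At least 2-fold apart in both states were 8 higher and 5 lower, beside 8.0% and 12.8% of all genes. The median was 0.09. Cbln1 (7.76), the phospholipase Plcb4 (1.79), Itpr1 (1.14), the cGMP-dependent kinase Prkg1 (1.60), Nos1 (1.97) and Homer3 (3.63) were in the higher group. The AMPA subunits Gria2 (-1.77) and Gria3 (-2.34), their anchor Grip1 (-1.71), the guanylate cyclase subunits Gucy1a1 (-1.62) and Gucy1b1 (-1.15), Pla2g4a (-0.89) and Gnaq (-0.54) were lower. Pick1, a binding partner of AMPA receptors, gave 1535 and 1507 against 1068 and 1067 and was not called (0.12 ± 0.05, adjusted p = 0.136).

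Genes that neurons in general express were mostly lower in cerebellum. Of 14 tested, 11 were called lower in cerebellum and 2 higher, beside 37.4% and 32.3% of all genes, with a median of -1.04. Stx1a, the plasma membrane syntaxin, gave 184943 and 175634 in cortex against 12500 and 13061 (-4.21 ± 0.06, adjusted p = 0.000866), and Uchl1, the neuronal ubiquitin hydrolase, gave 302046 and 302770 against 61528 and 70942 (-2.59). Neither gene had overlapping tissues. Stmn2 (0.99) and Eno2 (0.28) were higher in cerebellum and Snap25 was not called (0.15).

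The astrocyte, oligodendrocyte, precursor, microglia and vascular lists had medians between -1.01 and 0.84, and their counts are to be read beside the 32.3% of all tested genes called higher and the 37.4% called lower. Astrocyte genes were divided, 4 of 12 called higher, 7 lower and 1 not called, with a median of -0.39. Aqp4 (0.93), Gfap (0.98) and Atp1b2 (1.05) were higher, while Slc1a2 (-2.79) and the gap junction protein Gja1 (-0.96) were lower. Myelin and oligodendrocyte genes were higher for 10 of 16, lower for 1 (Olig1, -0.22) and not called for 5, with a median of 0.84. Mag, a myelin glycoprotein, gave 49481 and 54560 in cerebellum against 19387 and 25177, with the control cortex the lowest, and Ermn and Ugt8 were higher by 1.24 and 1.19. Precursor genes of that lineage were higher for 1 of 7 (Vcan, 1.25), lower for 4 and not called for 2, with a median of -0.30. Microglial genes were lower in cerebellum for 12 of 14 and called higher for none, with a median of -1.01, led by Trem2 (-1.83), Tmem119 (-1.35), Aif1 (-1.33) and the purinergic receptor P2ry12 (-1.29). Aif1 gave 14890 and 14419 in cortex against 7698 and 7587. Of 15 endothelial and mural genes 11 were lower, among them Pecam1 (-0.99), and Myh11 (1.21) and Vtn (0.45) higher, with a median of -0.53.

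Genes of the choroid plexus and of the meninges were higher on the cerebellar arrays. All 11 tested choroid plexus genes were called higher in cerebellum, all at least 2-fold in both states, against 32.3% and 8.0% of all genes. Their median was 5.41, with 3 of the 11 at bounds. Their summed signal was 750442 and 819370 in cerebellum against 30416 and 11548 in cortex. Ttr, transthyretin, the most abundant product of that epithelium, gave 681801 and 706335 against 25617 and 6076. Otx2 gave 4482 and 7322 against 25.0 and 11, with 1 of 2 cortical arrays well above background. Sostdc1 gave 8907 and 16688 against 63.6 and 25.8, so that the depressive array was the higher within cerebellum and the lower within cortex. Lmx1a (521 and 919) and Spp1 (2064 and 3210), which are not in the list, were also higher on the depressive of the cerebellar arrays. Meningeal genes were also higher, 11 of 12 called and 6 at least 2-fold in both states, against 32.3% and 8.0% of all genes. Their median was 1.28, with sums of 393498 and 464771 against 72059 and 141256. Most of each sum was Ptgds alone, at 304850 and 362321 against 51142 and 107598. Igf2 led that list at 2.30. How much of these tissues the slices held, and their part in the differences of other genes, was not tested.

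For markers of other regions the counts again stand beside 32.3% higher and 37.4% lower over all genes. Of 10 tested striatal genes 2 were called higher, 7 lower and 1 not called, with a median of -0.38, and the dopamine receptor Drd2 gave 924 and 1044 in cortex against 289 and 346 (-2.03). Isl1, Gpr6 and Six3, which the striatum or its precursors express, were not well above background on any array. Of 7 olfactory bulb genes 3 were lower and 4 not called (median -0.26), with Cdhr1 at -3.30. Of 6 tested pituitary and hypothalamic genes 3 were higher, 2 lower and 1 not called (median 0.10), and Avp, vasopressin, was higher by 1.52. Gh1 and Prl could not be tested: they gave 882 and 260 on the control cerebellum array and were not well above background on the depressive one. Of 8 tested brainstem genes 3 were higher, 4 lower and 1 not called (median -0.27). The part of these regions in the results was not tested. All 5 tested red cell genes were called lower in cerebellum (median -0.92), but their sums, 11510 and 56285 in cerebellum and 15710 and 67148 in cortex, differed far more between states than between tissues. The median turned to 0.40 without the control cerebellum array and to 0.21 without the depressive cortex array. The copies of Hbb on the array are near-identical and cannot be told apart.

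Lists of general cell function were set beside these, again with 32.3% of all genes called higher and 37.4% lower. Of 18 cytosolic ribosomal protein genes 3 were called higher, 3 lower and 12 not called (median 0.01), and of 20 oxidative phosphorylation genes 3 were higher, 3 lower and 14 not called (median 0.03). Cytosolic ribosomal members lay between Rps2 at -0.54 and Rpl18 at 0.61. Of 13 housekeeping genes 2 were higher, 5 lower and 6 not called (median -0.15, and 0.05 with quantile normalisation). Actb, the most used reference gene, was lower in cerebellum (-0.47 ± 0.05, adjusted p = 0.00762), and Gusb was higher (0.95 ± 0.05, adjusted p = 0.00265). Sdha (0.05) was not called. Of the 376 members of all lists and families that were called, 0 changed direction with normexp, median or quantile scaling, and 18 lost their call with quantile scaling, Shank3, Olig1, Gapdh, Pgk1 and Ppia among them.

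The tissue difference was similar in size in control and in depressive pools. Across the 11623 genes measured on all arrays the 2 differences correlated at 0.977, as a description across genes that share probes and 1 slide, and the median change between states was 0.0909. Of the genes at least 2-fold higher in cerebellum in the control pools (1268) 79.1% were so in both states, as were 86.7% of the 1157 in the depressive pools. On the cortical side the shares were 88.3% of 1822 and 87.7% of 1834. With 1 array per tissue and state, a change between states has no test.

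Leaving out genes that any array failed to detect, the 5 with the largest change of the tissue difference between states were Tmem95, Tlcd5, Vpreb1b, Or4c102 and Dapk2, and for each the depressive cerebellum array gave the highest signal. Tmem95, known from sperm, gave 29.2 on the control and 1159 on the depressive cerebellum array, against 32.7 and 28.6 in cortex. Dapk2, a death-associated kinase, gave 104 and 864 against 158 and 188. In both the depressive cerebellum array stood far above the others. None of the 5 was called in the tissue fit, but its residual is the change between states by which they were chosen. Their lack of a call was thus largely fixed by the choice. Genes bright in cerebellum also changed: the difference of Gabra6 was 8.72 in control and 9.99 in depressive pools, and that of Ttr was 4.37 and 6.45. In both cases the cortical arrays set most of the change. Ttr and the 6 marker genes kept their direction in both states, which the choice of genes required and which is no result.

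**Figure D4:**
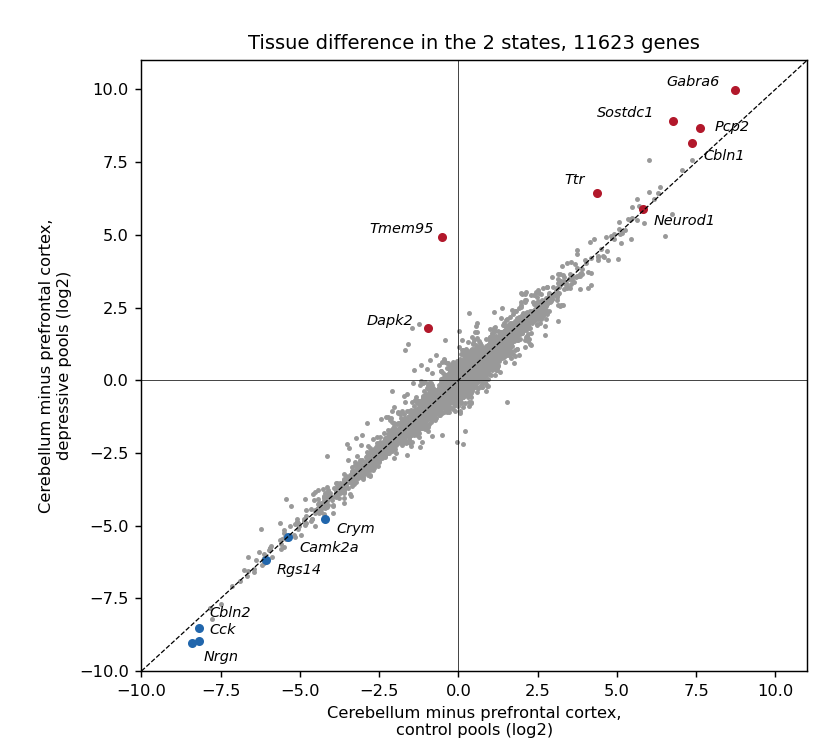
Log2 difference of cerebellum minus prefrontal cortex in control pools (horizontal) against that in depressive pools (vertical) for 11623 genes measured on all 4 arrays; the dashed line marks equal values and labelled genes are red where higher in cerebellum on average and blue where lower. Most genes lie near the line (median change 0.0909), and Tmem95 and Dapk2 lie far above it.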

How the data were processed

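RNA of 4 pools was measured on 1-colour arrays. Per the file headers, Agilent Feature Extraction 10.7.1.1 read the scans (protocol GE1_107_Sep09), and the deposited files give each spot's background-subtracted processed intensity. The value table deposited by the authors holds an intensity per probe divided by 1 number per array, and it was used as an alternative. How the authors chose it is not stated in the sources used.

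Control and outlier-flagged spots were left out, log2 processed intensity was averaged over a probe's spots, and each array's 75th percentile (3116 to 4369) was subtracted. A probe was well above background where at least 50% of its spots were so flagged, and a gene through any of its probes. Of 30367 probes 22031 have a RefSeq accession and 18355 were named through RefSeq (GRCr8), giving 15443 genes, and 12012 probes stayed unnamed. The brightest probe represented each of the 2668 genes with several. Genes well above background on both arrays of at least 1 tissue were fitted with limma 3.58.1 in R 4.3.3. The fit (lmFit and eBayes) held tissue and state and left 1 residual degree of freedom, with Benjamini-Hochberg adjustment at 0.05. The code was also run on simulated arrays with 200 changed genes. That run does not show how often calls are wrong in the data used here. The number of arrays limits the precision. The fit pools the variance over genes, so its SE for genes that vary little is near the shared value (median 0.0561).

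Named genes were the 6 markers, the 12 largest differences and up to 8 largest bounds per direction (of genes in the brighter part of the range), up to 4 leading and 3 opposing members of each list, the leading member of each family per tissue, and the 5 largest changes between states. Members and gene lists were chosen with earlier results of these data known. Other members of the lists and families are named with their values, and so are Gh1, Prl, Isl1, Gpr6 and Six3, without this rule, and some members are not reported here. Alternatives were normexp background correction, median and quantile scaling, filters on dim genes, the mean over probes, a floor, the value table, files as linked, a fit without state, an intensity trend, 4-fold, and leaving out each array. The files lack a mean signal column, so normexp used the median signal, as was found after the files were seen.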

Additional observations from a re-analysis of the deposited data

Results flagged for a closer look

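In 9 genes the tissue difference was at least 2-fold in both states but in opposite directions. The change from control to depressive pools in the log2 difference of cerebellum minus prefrontal cortex was 3.27 for Slc35g1, 3.24 for Tlcd5, 3.18 for Vpreb1b, 2.86 for Or4c102, 2.72 for C2h4orf46 and 2.72 for Cyren, and it was -2.89 for Supt20hl1, -2.72 for Fabp6 and -2.50 for AA926063. The difference between states was not tested, since each rests on 1 array per tissue and state. Tlcd5 had 1 spot per array, with signals of 31.0 and 204 in cerebellum and 65.7 and 44.2 in cortex. Signals of the 9 genes ranged up to 204, far under the 75th percentile of an array (3116 to 4369).

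Of 7729 probes without a gene name that were well above background on all 4 arrays, 1025 differed at least 2-fold between the tissues in both states, 438 of them higher in cerebellum and 587 lower, which is 13.3%. They were in no comparison of the report.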

How the results depend on the processing

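The fit pairs the arrays by state, and without state in it 4081 genes were called higher and 4695 lower. The labels give no replicate numbers for any further pairing. With the files as linked to samples, 0 genes were called higher and 0 lower, 1 gene was at least 2-fold higher and 10 at least 2-fold lower in both states, and no values for single genes or lists were computed there, since each linked group holds an array of each tissue. At 4-fold the counts were 362 and 631. Under the other settings that kept all arrays, 3179 to 4922 genes were called higher and 3838 to 5473 lower, and 684 to 1172 and 1232 to 1609 were 2-fold apart. Leaving out 1 array at a time left 3094 to 3621 called higher and 3681 to 4424 called lower.

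Of 195 named genes 24 lost their call under some setting and 8 turned their direction. Leaving out 1 array, the log2 difference ran from -2.37 to 0.54 for Hbb, from -2.37 to 0.53 for Hbb-b1, from -2.42 to 0.40 for Hbb-bs, from -1.06 to 1.88 for Dapk2, from -1.13 to 1.47 for Tlcd5, from -0.39 to 4.79 for Tmem95, from -0.95 to 1.66 for Vpreb1b and from -1.39 to 1.05 for Or4c102, which was 0.20 with normexp against -0.17. The cause was not tested, and 5 of these 8 genes were not called with all arrays in the fit. Calls at small differences (Rps18, Ndufs3, Olig1 and Pitx1) were lost under 7 or 8 settings. The median of the red cell list turned to 0.40 without the control cerebellum array and to 0.21 without the depressive cortex array, and the small medians of the housekeeping (0.05, quantile), pituitary (-0.08, normexp), ribosomal (-0.02, without the depressive cortex array) and brainstem (0.16, genes above background on all arrays) lists also changed sign. With normexp, 60 of the 195 named genes had a difference over 1.5-fold smaller, among them all 25 given as bounds. Signals near background limit the folds of dim genes, which are bounds.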

Other observations

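Among genes whose brighter tissue lay above the median of tested genes, several had a tissue difference that changed by more than 2-fold between states. They were chosen here after their values were seen. Sostdc1, an inhibitor of BMP and Wnt signals made in the choroid plexus, gave 6.76 in control and 8.92 in depressive pools, and Folr1, its folate receptor, 6.01 and 7.57. Mrgprf, an orphan receptor, went the other way, from 6.52 to 4.95, and Cpz, a secreted carboxypeptidase, from 2.74 to 1.55. Cortical signals were low for Sostdc1 (63.6 and 25.8), Folr1 (67.3 and 35.4) and Mrgprf (23.9 and 61.5). Tnnt1, a troponin of slow muscle, turned from -1.17 to 0.51, with 958 and 2599 in cerebellum against 1667 and 1370 in cortex. Tacr3, the neurokinin B receptor, gave 1622 and 720 in cerebellum against 1809 and 2012, so that it was lower in the depressive cerebellum pool than on the other arrays. Each of these rests on 1 array per tissue and state and has no test.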
